A study of Mus musculus with 2 samples.

Results

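Krt17, Krt79, Krt75, Krt24, Krt6a and Krt6b are keratin genes known from the hair follicle and from stressed or wounded epidermis. They were chosen by name and are 6 of the 19059 genes in the count tables. The data came from the dorsal skin of 2 untreated mice, a wildtype of the C57BL/6J strain and an Eppk1-/- animal from a backcross to C57BL/6J, with a punch biopsy and 1 single-cell library from each. Eppk1 encodes epiplakin, a plakin that binds keratin filaments. Cells were dissociated from whole skin, fixed and hybridized to a probe set for mouse transcripts. Each unique molecular identifier (UMI) counted a captured probe product rather than a transcript molecule. Age and sex of the mice are not given in the sources used here. With 1 library per genotype, no difference between genotypes could be tested, and all 95% intervals below cover counting error only.

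Keratins are the intermediate filament proteins of epithelia, and a filament is built from pairs of a type I and a type II keratin. In resting skin, Krt17 is known from the follicle, Krt79 from the funnel of the upper follicle and the sebaceous duct, and Krt75 from the companion layer that lines the outer root sheath. Krt6a and Krt6b are made in the companion layer and in other parts of the follicle, and rise with Krt16 and Krt17 in wounded or inflamed epidermis. Here the genes were asked 3 questions: which compartments of the skin epithelium held each, which were found together in single cells, and how their levels compared between the genotypes.

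On the GRCm38 build, all 6 genes lay on the minus strand. The type I genes were on chromosome 11, Krt24 at chr11:99279959-99285262 and Krt17 at chr11:100256217-100261029 between Krt16 and Krt42, with 8 exons each. The type II genes were on chromosome 15 with 9 exons each: Krt75 at chr15:101563345-101573904, Krt6b at chr15:101676023-101680287, Krt6a at chr15:101689910-101694307 and Krt79 at chr15:101929332-101940324. Krt6a and Krt6b were neighbours with 9622 bases between them, and their coding sequences were near-identical. Of 1659 aligned coding bases, 1622 were the same (97.8%), the longest identical run was 280 bases, and 60.4% of all 50-base windows of Krt6a also occurred in Krt6b. In the Krt6a coding sequence, 68.5% of 50-base windows occurred in some other gene, and in Krt6b 67.9%. The share was 4.8% for Krt17, where Krt14 held most of the matches, and 0% for Krt79, Krt75 and Krt24. In 25-base windows the shares were 78.6% for Krt6a, 79.9% for Krt6b, 25.2% for Krt17 (18.8% in Krt14), 6.14% for Krt75, 2.68% for Krt79 and 0.198% for Krt24. Whether Krt14 molecules were counted as Krt17 was not tested. The sequences of the probes are not given in the sources used here, so how the assay divided molecules between Krt6a and Krt6b is uncertain, and their values are best read as a pair. The stretch of 60 coding bases that tells them apart best is shown 5′ to 3′ (coding bases 817 to 876 of each, in exon 4, at chr15:101692484-101692543 for Krt6a and chr15:101678303-101678362 for Krt6b, minus strand), with the 10 differing bases in capitals.
Krt6a: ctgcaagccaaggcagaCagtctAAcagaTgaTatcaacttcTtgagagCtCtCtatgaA
Krt6b: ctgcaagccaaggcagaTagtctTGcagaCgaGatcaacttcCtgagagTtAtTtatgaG

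The libraries held 9179 wildtype and 8811 Eppk1-/- cells with 77638793 and 65118304 UMIs. After filtering, 5681 wildtype cells (64.0% of those kept) and 4249 Eppk1-/- cells (49.3%) were epithelial, with medians of 4550 and 4564 UMIs. The targeted gene stood at 2926 UMIs per 1000000 UMIs counted in the same cells (CPM) in wildtype epithelial cells and at 746 CPM in Eppk1-/- epithelial cells. Whether the Eppk1 probes lie in the deleted part is not given in the sources used here. Of the droplet barcodes, 1211 occurred in both libraries, where a library is the set of cells deposited for a mouse. The paper describes a workflow with pooled washes, and whether both samples shared a droplet run was not tested. Epithelial cells were split into 22 sub-clusters without using the 6 keratins, and 16 of them were named by other marker genes, so a name such as bulge-like, for markers of the bulge and hair germ, refers to those markers. The name inner bulge/companion-like came from a list of 5 markers for the inner bulge and the companion layer together, of which 3 were found, and that list does not separate the layers. Krt16, on that list, stood at only 309 CPM there in the wildtype against 2856 CPM in basal-like cells, and Krt15, a stem cell keratin that was not on it, stood at 11154 and 9939 CPM, near the 11194 and 11775 CPM of bulge-like cells. Sub-clusters 3 (led by Fst and Sostdc1), 7 (led by Ccn2, Ptn and Lgr6) and 12 (led by Tchh, Sprr1b and Krtap8-1) kept only their numbers. The closest marker class was outer sheath and isthmus for 3 and bulge and germ for 7, each with a lead under 0.3 (log2). For 12 it was inner root sheath, with 1 of 8 markers found. Sub-clusters 17, 18 and 21 were led or shared by fibroblast or immune genes, and sub-cluster 21 held Eppk1-/- cells only. These 3 enter the sums over all epithelial cells, and sub-clusters 17 and 18 also enter the comparison of genes across sub-clusters. They are not described further.

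**Figure D1:**
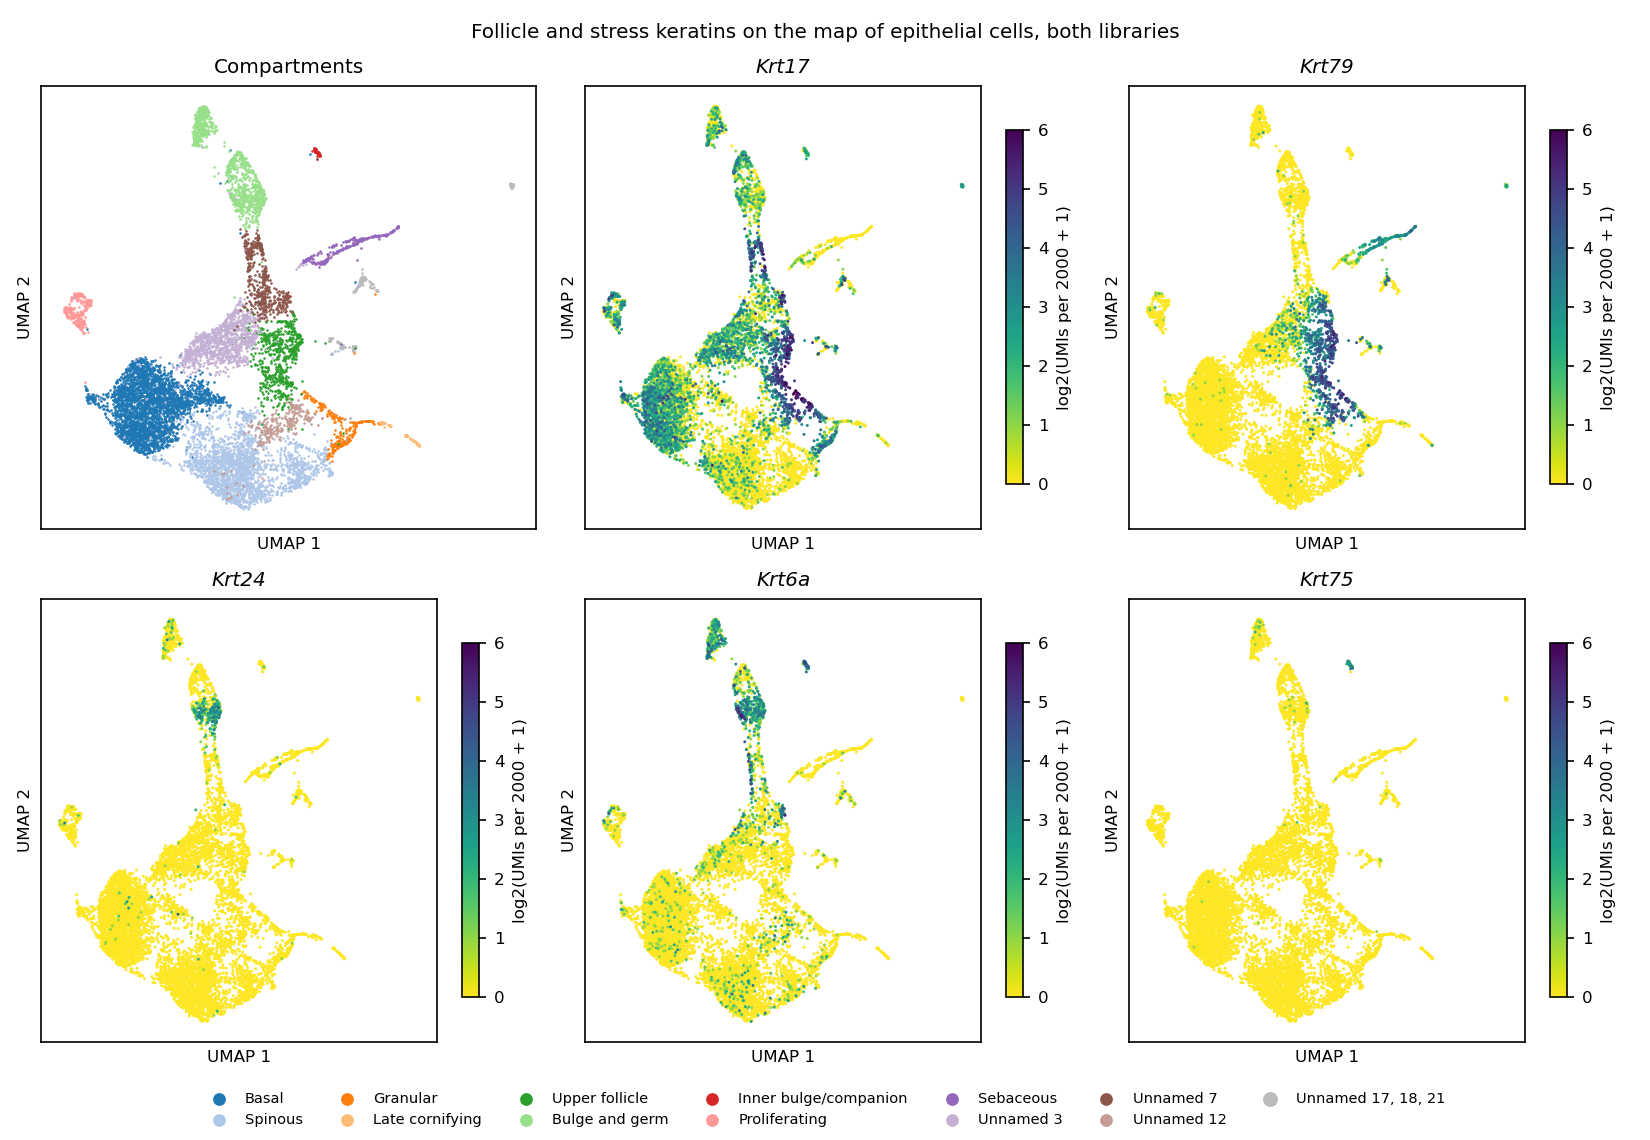
Map (UMAP, no units) of the epithelial cells of both libraries, coloured by compartment in the first panel and, in the other panels, by the log2 of 1 plus the UMIs of a keratin after each cell was thinned to 2000 UMIs. Krt17 spreads over most compartments, Krt79 lies in upper follicle-like, sebaceous-like and neighbouring cells, Krt24 and Krt6a lie in bulge-like cells, and Krt75 lies in the small inner bulge/companion-like group.

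Krt17 and Krt79 were both highest in upper follicle-like cells. There Krt17 stood at 7393 CPM (interval 7277 to 7509) in 369 wildtype cells and at 7619 CPM (7470 to 7770) in 238 Eppk1-/- cells. Krt79 stood at 6451 CPM (6343 to 6560) and 6923 CPM (6781 to 7067). Both libraries gave the same picture: after thinning to 2000 UMIs, 94.1% of wildtype and 94.5% of Eppk1-/- cells of this kind had a Krt79 UMI, and 86.8% and 88.5% a Krt17 UMI. As background, fibroblasts, which should hold neither, gave Krt79 in 1.29% and 0.960% of thinned cells and Krt17 in 4.47% and 2.76%, with median depths of 6973 and 6263 UMIs before thinning.

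Krt17 also reached far beyond the follicle funnel. Granular-like cells, which carry filaggrin and loricrin, held 4184 CPM in wildtype and 4530 CPM in Eppk1-/- cells. Sub-cluster 12 held 3810 and 3210 CPM, and sub-cluster 7 held 3217 and 3228 CPM. Proliferating cells followed with 1744 and 1447 CPM. Sub-cluster 3 (1343 and 1223 CPM), basal-like cells (1309 and 1182 CPM) and inner bulge/companion-like cells (1140 and 1179 CPM) lay close together, and the intervals of inner bulge/companion-like cells overlapped those of both others in the Eppk1-/- library. Bulge-like cells held 773 and 818 CPM. Basal-like cells were thus not free of this follicle keratin, since a Krt17 UMI was found in 56.8% and 60% of them after thinning. Spinous-like cells, which have left the basal layer, held 220 and 134 CPM.

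At the low end, Krt17 in sebaceous-like cells (76.1 and 32.6 CPM) was below the fibroblast value of the same library (98.7 and 41.9 CPM) and is read as background.

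Krt79 was more confined. Sub-cluster 12 held 3156 and 2890 CPM, and sebaceous-like cells, which make the lipids of sebum, held 1991 CPM in wildtype and 2290 CPM in Eppk1-/- cells. Granular-like cells (1142 and 1309 CPM) and sub-cluster 7 (1096 and 1116 CPM) came next and their intervals overlapped in the wildtype. In basal-like cells Krt79 stood at 5.92 and 4.17 CPM and in spinous-like cells at 3.05 and 1.26 CPM, below the 34.8 and 19.6 CPM of fibroblasts. In inner bulge/companion-like cells no Krt79 UMI was counted in either library, among 427204 and 49202 UMIs, and 3 counts would be 7.02 and 61.0 CPM. After thinning, sebaceous-like cells held a Krt79 UMI in 61.7% of wildtype and 83.7% of Eppk1-/- cells, but these cells differed in depth (medians of 6102 and 12741 UMIs), and the part of the depth gap in that difference was not tested.

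Krt24 marked the bulge-like cells, which carry the stem cell genes Cd34, Lgr5 and Lhx2. It stood there at 477 CPM (450 to 504) in wildtype and 431 CPM (397 to 468) in Eppk1-/- cells. Within these cells it was uneven. Sub-cluster 5, led by Ccn2, Postn and Angptl7, held 676 and 608 CPM, and sub-cluster 8, led by Postn, Fgf18 and Lhx2, held 73.0 and 98.5 CPM. In upper follicle-like cells only 2 and 0 Krt24 UMIs were counted, and the fibroblast background was 2.66 and 1.09 CPM.

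Krt6a was found in the same bulge-like cells and in inner bulge/companion-like cells. Bulge-like cells held 1788 CPM (1737 to 1841) in wildtype and 1302 CPM (1242 to 1365) in Eppk1-/- cells, and sub-cluster 8 was below sub-cluster 5 here too, but by less than for Krt24 (1464 against 1948 CPM in the wildtype, 987 against 1470 CPM in the Eppk1-/- library). Inner bulge/companion-like cells held 4588 CPM (4387 to 4796) and 2419 CPM (2004 to 2894). Sub-cluster 7 held 847 and 1093 CPM. In both mice the level was low in basal-like (45.1 and 33.7 CPM), spinous-like (79.6 and 64.2 CPM) and granular-like cells (87.6 and 27.3 CPM), against 17.9 and 8.71 CPM in fibroblasts. Krt16, the type I keratin that is induced together with Krt6a in wounds, had another distribution in these samples. It stood at 2856 and 2405 CPM in basal-like and 2220 and 1398 CPM in spinous-like cells, and at 375 and 373 CPM in bulge-like cells.

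Krt75 was almost limited to inner bulge/companion-like cells. They held 1800 CPM (1675 to 1932) in 62 wildtype cells and 1524 CPM (1199 to 1911) in 12 Eppk1-/- cells, and 57 of the 62 and 11 of the 12 cells had at least 1 Krt75 UMI. Bulge-like cells held 13.3 and 25.2 CPM, mostly in sub-cluster 8 (24.7 and 59.9 CPM) rather than sub-cluster 5 (7.57 and 6.81 CPM). In the remaining named compartments Krt75 was counted 0 to 7 times per library.

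Krt6b was close to absent from the epithelial cells, with 24 UMIs in 15 wildtype cells and 4 UMIs in 3 Eppk1-/- cells. In the wildtype, 8 of these UMIs were in inner bulge/companion-like cells, 6 in bulge-like cells and 8 in a single granular-like cell. With so few counts and a near-identical neighbour, no compartment or genotype value of Krt6b is read further.

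**Figure D2:**
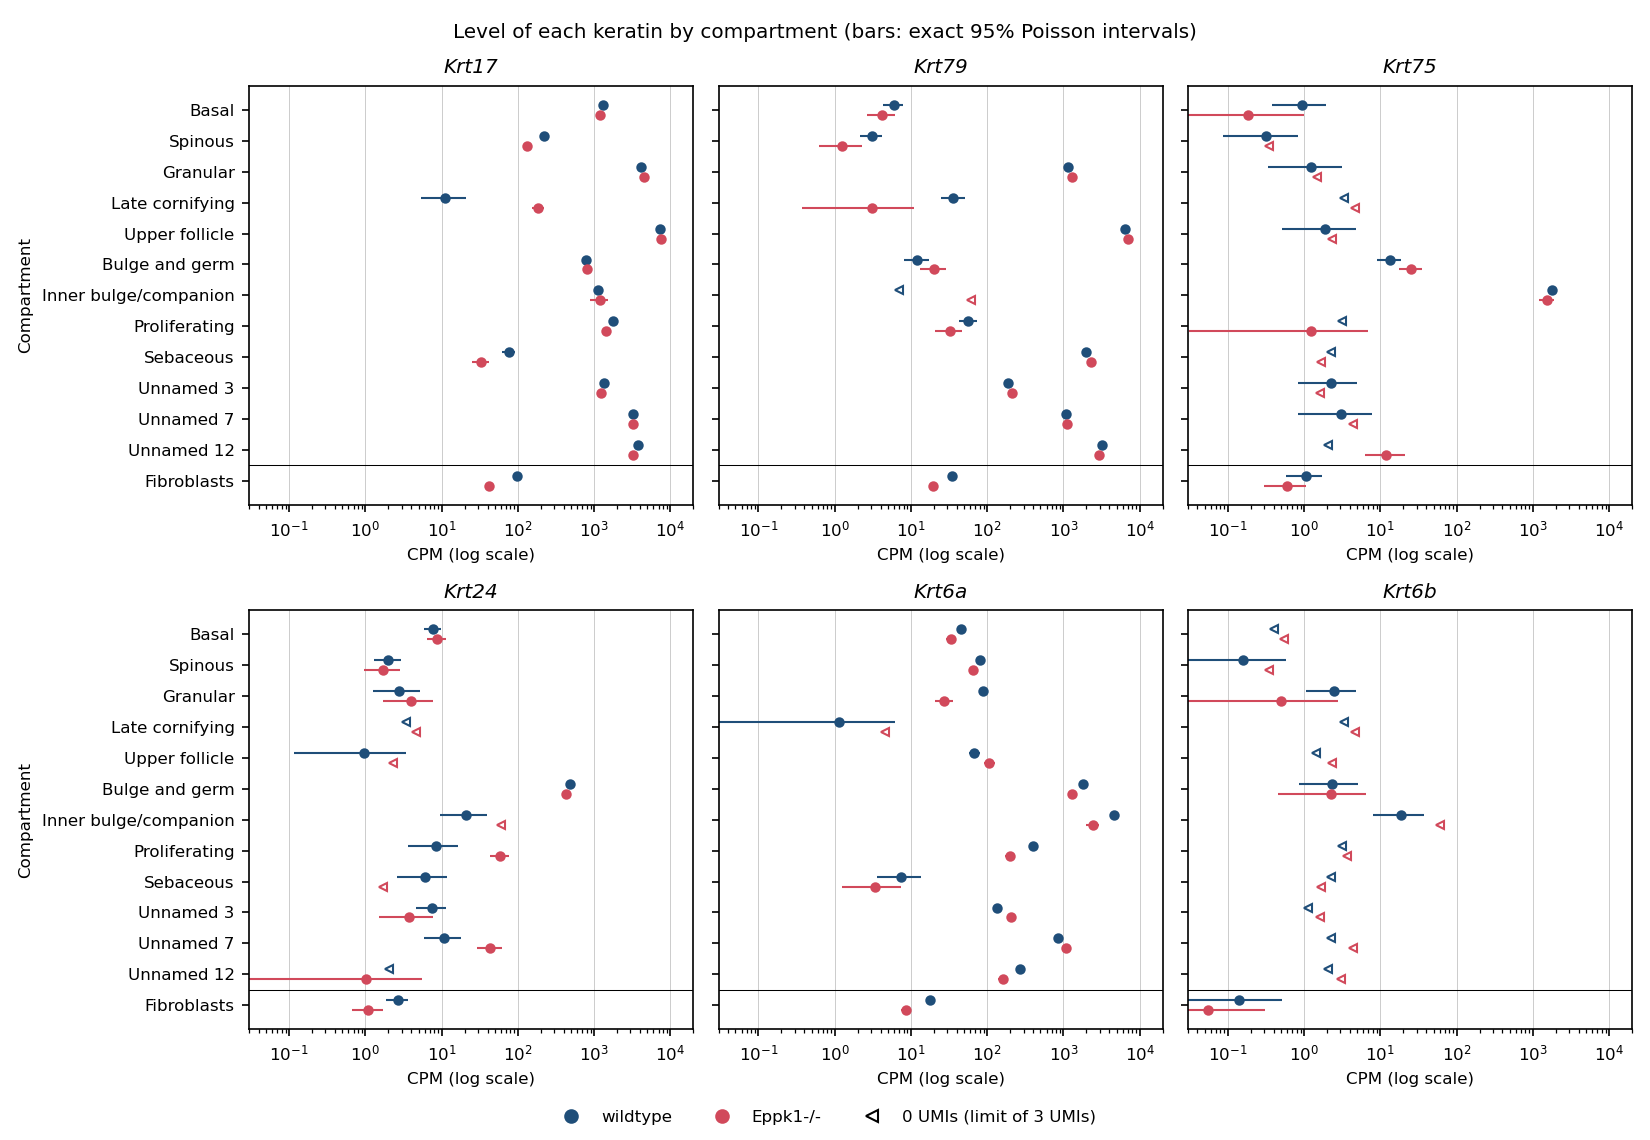
Level of each keratin (CPM, log axis) by compartment in the wildtype and Eppk1-/- libraries, with fibroblasts as background and bars for exact 95% Poisson intervals. Krt17 and Krt79 peak in upper follicle-like cells, Krt24 in bulge-like cells, and Krt75 and Krt6a in inner bulge/companion-like cells.

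Counted as shares of a gene's epithelial UMIs rather than as levels, the genes differed in how they were spread. Over both libraries, upper follicle-like cells held 25.7% of Krt17 UMIs (interval 25.4% to 26.0%), granular-like cells 23.0% and basal-like cells 16.3%. Upper follicle-like cells held 46.9% of Krt79 UMIs, sub-cluster 12 held 15.5%, sebaceous-like cells 13.9% and granular-like cells 13.2%. Bulge-like cells held 84.8% of Krt24 UMIs and 42.1% of Krt6a UMIs. For Krt6a, inner bulge/companion-like cells added 13.8%, sub-cluster 7 12.4% and spinous-like cells 10.3%. Of the spinous-like cells, 160 of 1205 wildtype and 95 of 1017 Eppk1-/- cells had a Krt6a UMI. Inner bulge/companion-like cells held 87.8% of Krt75 UMIs.

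These shares were similar in the libraries for Krt17 (25.7% and 25.6% in upper follicle-like cells) and differed most for Krt75 and Krt6a. Inner bulge/companion-like cells held 92.0% of wildtype and 60% of Eppk1-/- Krt75 UMIs, and 18.3% and 2.7% of Krt6a UMIs. The cells themselves were 1.09% (0.838% to 1.40%) of wildtype and 0.282% (0.146% to 0.493%) of Eppk1-/- epithelial cells. Bulge-like cells were 11.9% (11.1% to 12.8%) and 8.59% (7.76% to 9.47%). With 1 biopsy of each mouse, genotype and biopsy cannot be told apart in these shares.

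A few cells carried much of each gene. Counted from the highest cell down, 50% of the Krt75 UMIs lay in 9 wildtype and 6 Eppk1-/- cells, and a single wildtype cell held 142 of 836. The corresponding numbers of cells were 56 and 25 for Krt24, 118 and 67 for Krt6a, 104 and 90 for Krt79, and 215 and 138 for Krt17.

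**Figure D3:**
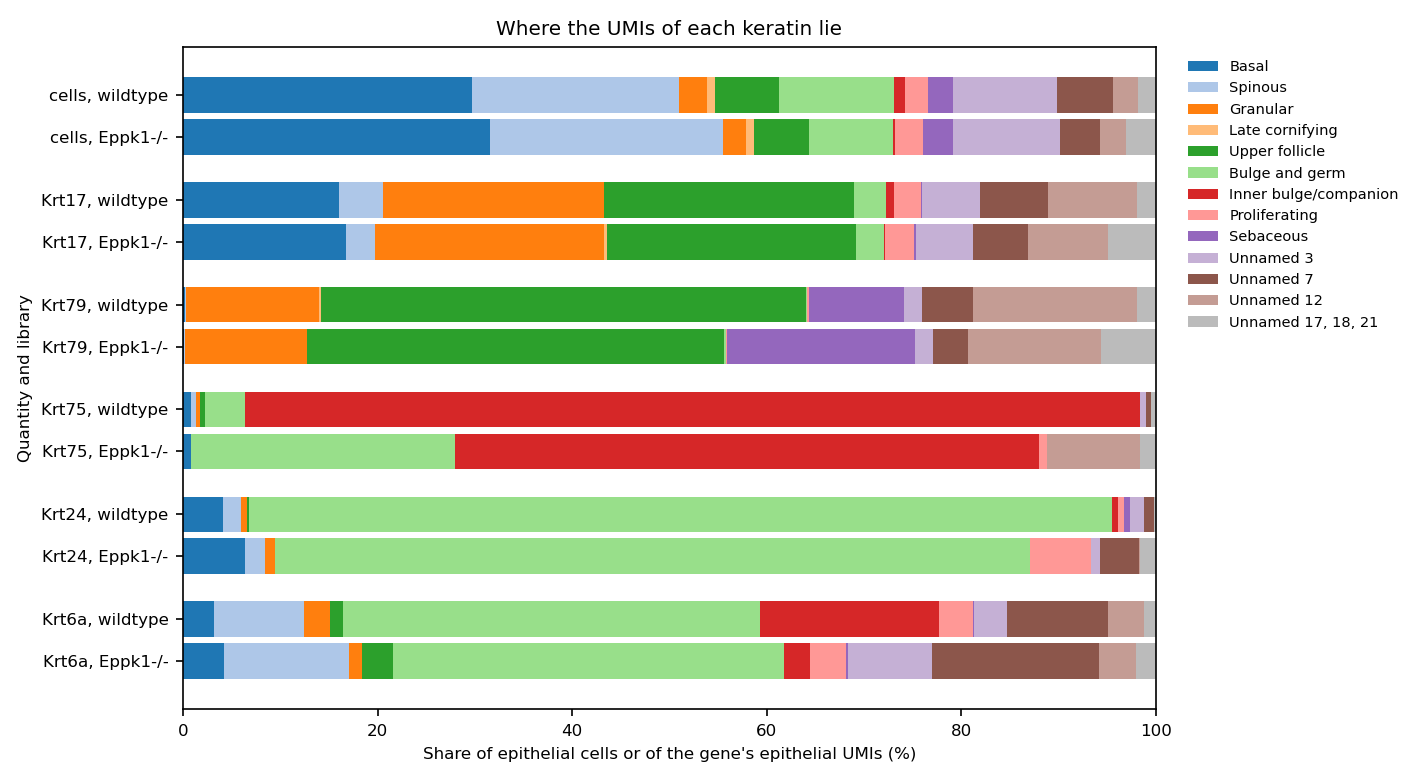
Share (%) of epithelial cells, and of the epithelial UMIs of each keratin, held by each compartment in each library, as stacked bars. The inner bulge/companion-like compartment is barely visible among the cells but holds 92.0% of wildtype and 60% of Eppk1-/- Krt75 UMIs, while bulge-like cells hold most Krt24 and upper follicle-like cells the largest share of Krt79.

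In single cells, thinned to 2000 UMIs, Krt79 was mostly found together with Krt17, but the reverse did not hold. Of 713 wildtype cells with Krt79, 71.7% (68.2% to 75.0%) also had Krt17, and of 532 Eppk1-/- cells 70.1% (66.0% to 74.0%), against 46.7% and 42.4% of cells without Krt79. Of the cells with Krt17, only 20% and 21.7% had Krt79. The overlap depended on the compartment. In upper follicle-like cells, 89.1% and 91.2% of Krt79 cells had Krt17, and in granular-like cells 35 of 36 and 29 of 29. Krt17 was common among all cells of both compartments, Krt79 cells included. Before thinning it was in 335 of 369 and 217 of 238 upper follicle-like cells, and in 155 of 166 and 93 of 102 granular-like cells. In sub-cluster 12, 88.5% and 97.8% of Krt79 cells had Krt17 against 38.6% and 20% of the rest. In sebaceous-like cells the genes were apart, with Krt17 in 7.32% and 3.88% of Krt79 cells. In sub-cluster 7 Krt17 was found less in Krt79 cells than in the others, at 44.0% against 73.7% in the wildtype and 65.8% against 82.5% in the Eppk1-/- library. The intervals of these shares did not overlap in the wildtype (33.2% to 55.3% and 66.9% to 79.8%) and overlapped in the Eppk1-/- library (48.6% to 80.4% and 73.8% to 89.3%). As background, of the few fibroblasts with a Krt79 UMI (22 and 25 cells), 10 and 5 also had Krt17. These shares were larger than among all thinned fibroblasts of the same library, and the source of this overlap was not tested.

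Krt6a was the common partner of Krt24 and Krt75, which themselves shared few cells. Of 214 wildtype cells with Krt24, 73.8% (67.4% to 79.6%) had Krt6a, and of 99 Eppk1-/- cells 66.7% (56.5% to 75.8%), against 13.3% and 10.0% of cells without Krt24. The gap was smaller within bulge-like cells, where 81.5% and 81.3% of Krt24 cells and 63.9% and 47.1% of the others had Krt6a. Of 70 wildtype cells with Krt75, 85.7% (75.3% to 92.9%) had Krt6a, and of 25 Eppk1-/- cells 68.0% (46.5% to 85.1%). Within inner bulge/companion-like cells, 46 of 47 wildtype and 9 of 10 Eppk1-/- Krt75 cells had Krt6a. Nearly all cells of this compartment held Krt6a, 61 of 62 and 11 of 12 before thinning. The overlap there therefore does not show a pairing of the genes cell by cell. Krt24 and Krt75 shared only 5 and 2 cells, but both genes were found in few cells. Krt24 was in 5 of 70 and 2 of 25 Krt75 cells, and in 214 of 5094 and 99 of 3711 thinned epithelial cells. Its share was thus not lower among Krt75 cells. Krt79 and Krt75 shared 2 and 0 cells, a smaller share of Krt75 cells than of all thinned cells. Krt6a and Krt17 shared cells little more than cells without Krt6a did: 54.2% and 55.0% of Krt6a cells had Krt17, against 49.4% and 45.2% of the rest.

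The number of the 6 keratins that a thinned cell held also differed between compartments. In upper follicle-like cells, 78.8% of wildtype and 82.9% of Eppk1-/- cells held exactly 2. Inner bulge/companion-like cells held exactly 3 in 45.5% and 60% of 55 and 10 cells, and exactly 2 in 45.5% and 30%. Bulge-like cells most often held exactly 1, in 40.6% and 40.9%. In spinous-like cells 75.9% and 84.1% held none, and in fibroblasts 93.8% and 95.9%.

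**Figure D4:**
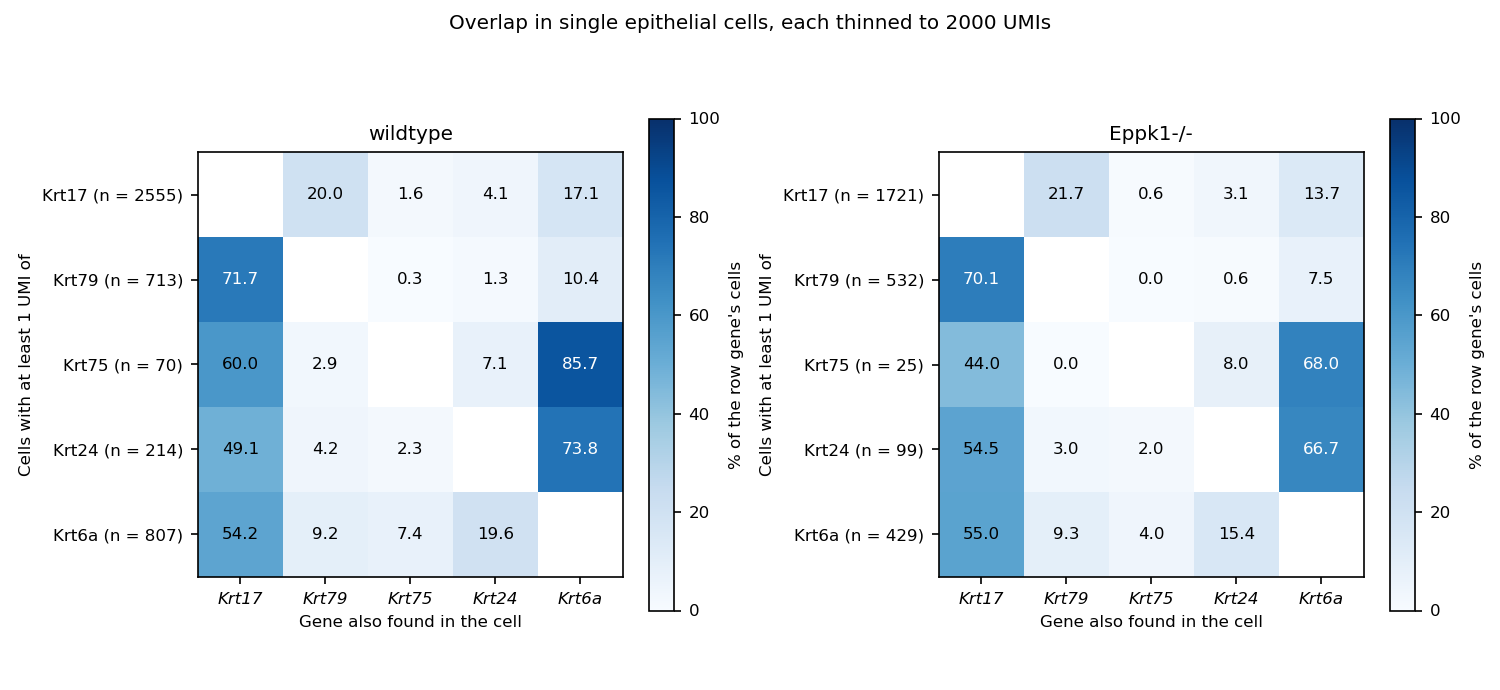
Share (%) of thinned epithelial cells with a first keratin (row) that also held a second (column), in the wildtype and Eppk1-/- libraries. Krt79 cells mostly held Krt17 (71.7% and 70.1%), and Krt75 and Krt24 cells mostly held Krt6a.

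Between the genotypes, Krt75 and Krt6a were lower in Eppk1-/- epithelial cells taken as a whole, and the other keratins differed less. Krt75 stood at 22.0 CPM (836 UMIs) in wildtype and 4.67 CPM (125 UMIs) in Eppk1-/- cells, a log2 ratio of Eppk1-/- over wildtype of -2.23 (-2.52 to -1.96). Krt6a stood at 281 and 163 CPM (log2 ratio -0.78, -0.84 to -0.73). Krt24 stood at 36.2 and 28 CPM (-0.37, -0.50 to -0.24). Krt17 stood at 1591 and 1452 CPM (-0.13, -0.15 to -0.11) and Krt79 at 717 and 787 CPM (0.13, 0.11 to 0.16). The sign of the Krt79 ratio turned under other weightings, to -0.039 when every cell weighed the same and to -0.017 after thinning.

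Of the 5 keratins with at least 50 UMIs, 2 were past a log2 ratio of 0.5 downwards and 0 upwards. Among all 11959 genes with at least 50 UMIs, 4.65% were past it downwards and 4.7% upwards, 9.35% in all. The median log2 ratio was -0.37 over the 5 keratins and -0.01 over all those genes. Among the 3533 genes found in at least 25% of the epithelial cells of a library, the filter the study used, 0.934% were past 0.5 in either direction, and Krt17 was the only one of the 6 keratins in that set.

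The inner bulge/companion-like cells, which held most Krt75, were also a smaller share of the Eppk1-/- library. When only these cells were given the share of UMIs they had in the wildtype, the log2 ratio over all epithelial cells was -0.21 for Krt75 and -0.61 for Krt6a. When each Eppk1-/- sub-cluster was given the share of UMIs it had in the wildtype, the log2 ratio of Krt75 was -0.18, that of Krt24 -0.029, that of Krt17 -0.0090 and that of Krt6a -0.38, and 0 keratins were past 0.5. For Krt75 both values rest on the 12 Eppk1-/- inner bulge/companion-like cells with 75 Krt75 UMIs. Within inner bulge/companion-like cells the log2 ratio of Krt75 was -0.23 (-0.60 to 0.10), an interval that spans 0. In bulge-like cells Krt75 went the other way, at 0.93 (0.20 to 1.66) with 34 UMIs in each library, where 5.11% of genes were past 0.5 upwards. Without the highest wildtype and Eppk1-/- cell, the ratio over all epithelial cells was -2.17.

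Krt6a was lower within several compartments too. In bulge-like cells its log2 ratio was -0.46 (-0.54 to -0.38) and in inner bulge/companion-like cells -0.92 (-1.20 to -0.66), where 18.6% of the genes with at least 50 UMIs were past -0.5. In granular-like cells it was -1.67 (-2.13 to -1.26), from 287 and 55 UMIs, against 10.3% of genes past -0.5. After subtraction of the fibroblast level of the same library (17.9 and 8.71 CPM), the bulge-like, inner bulge/companion-like and granular-like ratios were -0.45, -0.92 and -1.91. In basal-like and spinous-like cells the ratio was -0.42 (-0.68 to -0.16) and -0.31 (-0.46 to -0.16). The fibroblast level was lower in the Eppk1-/- library as well, and its subtraction left -0.12 (27.2 and 25 CPM) and -0.16 (61.7 and 55.5 CPM). Krt79 in basal-like (5.92 and 4.17 CPM) and spinous-like cells (3.05 and 1.26 CPM) was below its fibroblast level (34.8 and 19.6 CPM). The fibroblast level can thus exceed the background of these cells, and the size of that background was not tested. Other non-epithelial cells differed in direction, with Krt6a at 9.37 and 15.7 CPM in macrophages and monocytes and at 71.6 and 7.54 CPM in Langerhans and dendritic cells. The Krt6a ratio was above 0 in sub-cluster 3 (0.59, 0.38 to 0.80, with 3.83% of genes past 0.5) and sub-cluster 7 (0.37, 0.23 to 0.50), and below 0 in sub-cluster 12 (-0.71, -0.99 to -0.45, with 5.69% of genes past -0.5). Sub-cluster 7 thus went the other way from the bulge-like cells. Its markers were nearly as close to outer sheath and isthmus (mean excess 2.44, log2) as to bulge and germ (2.56). In proliferating cells the log2 ratio of -0.99 rested on a single wildtype cell with 235 of 381 UMIs, and without the highest cell of each library it was -0.30 (-0.68 to 0.07), with 9.1% of genes past -0.5 in these cells. In upper follicle-like cells, where 3.85% of genes were past 0.5, the ratio of 0.65 likewise became 0.25 (-0.16 to 0.66).

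Krt17 and Krt79 differed little in their main compartment. In upper follicle-like cells the log2 ratio was 0.04 (0.01 to 0.08) for Krt17 and 0.10 (0.06 to 0.14) for Krt79, and in granular-like cells 0.11 (0.08 to 0.15) and 0.20 (0.12 to 0.27). In spinous-like cells the Krt17 ratio was -0.72 (-0.82 to -0.62), and 4.4% of genes were past -0.5 there. Each of the 4 spinous-like sub-clusters was lower in the Eppk1-/- library: 330 and 231, 153 and 58.9, 208 and 51.3, and 149 and 20.7 CPM. The Krt17 background in fibroblasts was also lower, at 98.7 and 41.9 CPM, and its subtraction left a ratio of -0.40 (121 and 91.7 CPM). Other non-epithelial cells differed in direction. Krt17 stood at 63.9 and 85.3 CPM in macrophages and monocytes and at 553 and 259 CPM in endothelial cells. The value of -0.40 thus holds for the fibroblast level only. That level can exceed the background of spinous-like cells, where Krt79 stood at 3.05 and 1.26 CPM against 34.8 and 19.6 CPM in fibroblasts. Of the Eppk1-/- sub-cluster values of Krt17, 20.7 CPM was below its fibroblast level, and 51.3 and 58.9 CPM were not far above it. In basal-like cells the ratio was -0.15 (-0.19 to -0.10), and of the 4 sub-clusters 2 were lower (1440 and 1392, 1325 and 1037 CPM) and 2 higher (429 and 704, 1766 and 2198 CPM) in the Eppk1-/- library.

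Krt24 was slightly lower in its own compartment, with a log2 ratio in bulge-like cells of -0.14 (-0.29 to -0.0014). Its ratio of 2.71 in proliferating cells came from 8 and 47 UMIs, of which 34 were in a single Eppk1-/- cell, and 4.31% of genes were past 0.5 upwards there.

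**Figure D5:**
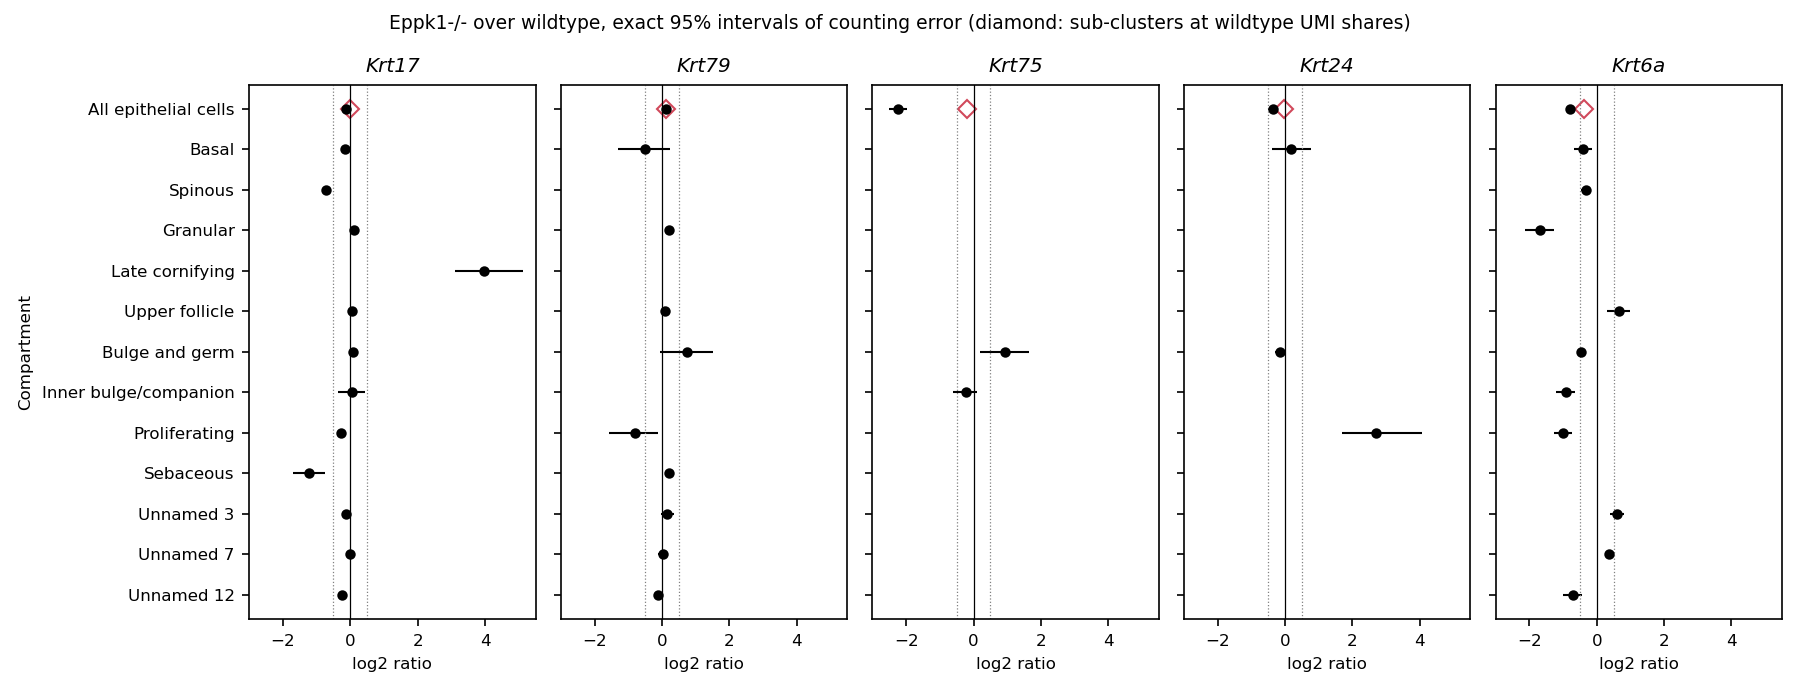
Log2 ratio of Eppk1-/- over wildtype for each keratin in all epithelial cells and by compartment, with exact 95% intervals for counting error, where at least 50 UMIs were counted. Krt75 and Krt6a lie left of -0.5 in all epithelial cells, Krt17 and Krt79 lie near 0 in upper follicle-like cells, and Krt6a lies on both sides of 0 in different compartments.

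Over all epithelial cells, none of the other keratins with at least 50 epithelial UMIs was past -0.5. Within compartments, Krt16 stood at 2220 and 1398 CPM in spinous-like, 901 and 420 CPM in granular-like and 375 and 373 CPM in bulge-like cells. Of 28 other keratins listed, 27 were in the count tables and 19 had at least 50 epithelial UMIs. Of these 19, 5 were past 0.5 upwards and 0 downwards, with a median of 0.09. Among all genes with at least 50 UMIs, 4.7% were past 0.5 upwards and 4.65% downwards. The lowest were Krt16 (-0.46, -0.48 to -0.44) and Krt78 (-0.46, -0.52 to -0.40), both further below 0 than Krt24, followed by Krt77 (-0.20) and Krt15 (-0.17). The epidermal keratins Krt10 (-0.01), Krt14 (0.09), Krt5 (0.12) and Krt1 (0.36) lay closer to 0 or above it. The keratins past 0.5 were the inner root sheath keratins Krt25 (5 and 215 UMIs), Krt71 (13 and 506), Krt27 (60 and 476) and Krt28 (54 and 123), each found in at most 1.01% of cells of a library, and the simple epithelial keratin Krt8 (181 and 256).

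Of 16 stress and alarm genes of keratinocytes, 14 were in the count tables and 12 had at least 50 UMIs. Of these 12, 4 were past 0.5 downwards and 0 upwards, with a median log2 ratio of -0.43. Among all genes with at least 50 UMIs, 4.65% were past it downwards and 4.7% upwards, with a median of -0.01. The 4 were Lcn2, an iron-binding defence protein (-2.95, 71 and 6 UMIs), the cornified envelope gene Sprr2d (-0.95), the antimicrobial peptide gene Defb14 (-0.86) and the protease inhibitor gene Slpi (-0.61). Each was found in at most 4.14% of cells. Among those within 0.5, S100a8 was higher (0.43, 0.05 to 0.80) and S100a9 lower (-0.47). The more widely found Sprr1a (55.2% and 54.8% of cells) and Il1rn (43.4% and 45.9%) differed less, at -0.09 and -0.16. Krt16 stood at 1659 and 1204 CPM, a log2 ratio of -0.46. Of 10 early genes that rise during dissociation, 0 were past 0.5, and their median was -0.18, with Junb lowest at -0.43. The ratios of these lists and of the other keratins are over all epithelial cells. They were not recomputed with sub-clusters at wildtype UMI shares.

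Across the 20 sub-clusters with at least 20 cells in each library, levels of the keratins were set beside those of 11027 genes by Pearson r of log2(CPM + 10), averaged over the libraries. These are descriptions across sub-clusters that share their libraries and their free RNA. Sub-clusters 17 and 18, led by fibroblast and immune genes, were among the 20, and the inner bulge/companion-like sub-cluster was not. Without it, Krt75 was counted 0 to 28 times per sub-cluster and library, too few outside sub-cluster 8 to order other genes by, and no likeness is given for it. The genes most like Krt79 were Chp1 (0.89), Endod1, Nfe2l3, Cst6 and Rgs10 (0.80), of which Cst6 was also a marker used to name the upper follicle-like cells. Those most like Krt24 were Duox1 (0.94), Lypd6, B3gnt8, Cyp2s1 and Spink2 (0.90), over levels that were high mainly in sub-clusters 5 and 8. Krt6a was most like Myo9a (0.87), App, Hmcn1, Igf2r and Polr2a (0.85), and Krt17 had the weakest likenesses, led by Mapkapk2 (0.81), Mill1, Epcam, Cers2 and Polk (0.74). Among the keratins themselves, r was 0.69 for Krt24 with Krt6a, 0.49 for Krt17 with Krt79 and -0.20 for Krt79 with Krt24.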

How the data were processed

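Single-cell RNA was measured by fixed-RNA probe hybridization in 1 wildtype and 1 Eppk1-/- library. The authors deposited raw UMI counts per gene and cell, made with Cell Ranger 8.0.1 per the file headers and the mm10 reference per the labels. The 6 genes and all gene lists were chosen with earlier results of these data known, and the rule naming sub-clusters was set after clusters were seen.

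The cell filter was that of the study (UMIs between 200 and 45000, genes between 100 and 7500, mitochondrial share up to 10%), and 13 mitochondrial genes were dropped. Cells were clustered in R 4.3.3 with Seurat 5.3.0 (2000 variable features without the 6 keratins, 50 principal components, RPCA integration, resolution 0.5), and 12 of 25 clusters, as epithelial, were clustered again at resolution 1. A name needed 3 fixed markers in at least 25% of cells and a lead of 0.3 (log2) over the next class. Scrublet in scanpy 1.11.5 called 7 and 234 cells as doublets, so none were removed and the highest 5% of scores were left out as an alternative.

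UMIs were summed per compartment and library and divided by all UMIs of those cells. Intervals were exact at 95%: Poisson for CPM, Clopper-Pearson for shares, conditional binomial for log2 ratios, with 0.5 UMI added to each sum. For co-detection, each cell was thinned to 2000 UMIs, and 587 and 538 shallower epithelial cells were not used. Sums were made with pandas 2.3.3 and numpy 2.4.6 and intervals with scipy 1.17.1 under Python 3.11.15, and edgeR 4.0.16 gave TMM factors only. Calculations were tested on simulated data. Genes named were the 6 keratins, the 5 genes most like each (not given for Krt75 and Krt6b, with too few UMIs), and, of each list, up to 4 past a log2 ratio of 0.5 by size. Krt8, the keratins within 0.5, S100a8, S100a9, Sprr1a, Il1rn and Junb were named after their values were seen. Gene positions and coding sequences were from GENCODE M21 on GRCm38. Levels were not compared between genes, since the number of probe pairs per gene is not given in the sources used here.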

Additional observations from a re-analysis of the deposited data

Results flagged for a closer look

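The log2 ratio of Eppk1-/- over wildtype for Krt17 went in opposite directions in some compartments. It was -0.72 in spinous-like (-0.40 with the fibroblast level subtracted) and -1.22 in sebaceous-like cells, but 3.97 in late cornifying cells, and with 1 library per genotype the difference between compartments was not tested. The value in late cornifying cells came from 10 UMIs in 49 wildtype cells and 120 UMIs in 35 Eppk1-/- cells, of which 76 were in a single cell, and without the highest cell of each library it was 2.89 (interval 1.86 to 4.26). In late cornifying cells 13.3% of genes with at least 50 UMIs were past 0.5 upwards. The wildtype level in late cornifying cells and both sebaceous-like levels were below those of fibroblasts in the same library, and 22.9% of genes were past -0.5 in sebaceous-like cells.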

How the results depend on the processing

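With sub-clusters of the Eppk1-/- library weighted as in the wildtype, the log2 ratios were -0.0090 (Krt17), -0.18 (Krt75), -0.029 (Krt24) and -0.38 (Krt6a), and 0 keratins were past -0.5 instead of 2. With only the inner bulge/companion-like cells so weighted, chosen after seeing the data, they were -0.21 (Krt75) and -0.61 (Krt6a), and 1 keratin was past -0.5. With every cell weighing the same they were -0.15 (Krt17), -0.039 (Krt79), -1.32 (Krt75) and -0.51 (Krt24), and after thinning -0.017 (Krt79), -1.22 (Krt75) and -0.62 (Krt24). Without a cell filter they were -0.051 (Krt17) and -0.73 (Krt6a), without the highest 5% of doublet scores -0.16 (Krt17) and 0.089 (Krt79), without sebaceous-like cells -0.084 (Krt17) and 0.020 (Krt79), with the fibroblast level subtracted -0.082 (Krt17) and 0.17 (Krt79), and without shared droplet barcodes -2.52 (Krt75) and -0.88 (Krt6a). Without sub-clusters 17, 18 and 21, chosen after seeing the data, they were -0.16 (Krt17) and 0.091 (Krt79). The share held by the leading compartment was, at resolution 2, 29.2% (Krt17), 51.7% (Krt79) and 46.7% (Krt6a), without integration 23.2% (Krt17) and 42.4% (Krt79), with the 6 keratins allowed among the variable features 46.3% (Krt79) and 40.2% (Krt6a), without the highest doublet scores 26.4% (Krt17), 48.4% (Krt79) and 87.5% (Krt24), and after thinning 27.6% (Krt17), 60.9% (Krt79), 82.4% (Krt75), 87.9% (Krt24) and 52.9% (Krt6a). At resolution 0.5 no sub-cluster was named upper follicle-like, so Krt17 and Krt79 had no value there. Krt79 cells with Krt17 were 75.7% (wildtype) and 74.5% (Eppk1-/-) unthinned and 67.6% (wildtype) with 2 UMIs asked of each gene. Krt75 cells with Krt6a were then 95% (wildtype), and Krt24 cells with Krt6a 61.8% and 50.8%, or 79.9% (wildtype) unthinned. Among all genes, 14 were past 0.5 upwards and 19 downwards where found in at least 25% of cells, 562 and 556 with at least 50 UMIs, and 2080 and 1971 with at least 1 UMI. The other 97 of 150 alternative values stayed within the interval of the value reported, or, for counts, within 1.5 times of it, TMM scaling and a stricter cell filter among them. The causes of the shifts were not tested. No paired analysis was possible because each genotype had 1 library, which also left no replicate to leave out.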

Other observations

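The 265 wildtype and 185 Eppk1-/- cells left out for holding over 45000 UMIs also held these keratins. Krt17 stood at 704 CPM (interval 691 to 716) and 847 CPM (830 to 863), Krt79 at 102 and 124 CPM and Krt6a at 99.2 and 71.4 CPM. These cells were not split by cell type, so their levels are not those of epithelial cells alone. Krt6b was counted 13 and 20 times there (0.769 and 1.62 CPM). In the epithelial cells that were kept it was counted 24 and 4 times (0.630 and 0.149 CPM). Krt75 was counted 3 and 1 times and Krt24 2 and 1 times.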
